A study of Mus musculus with 24 samples.

Results

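The subunits of the mitochondrial respiratory chain and of ATP synthase were examined in the terminal ileum of 24 mice. Genes were taken by symbol, as those of complex I (Nduf), complex II (Sdh), complex III (Uqcr), complex IV (Cox4 to Cox8) and complex V (Atp5) with a probe set that carries no other gene, and 79 of 18820 genes tested were members. Complex I held 33 of them, complex II 4, complex III 7, complex IV 18 and complex V 17, with Ndufa4 counted in complex IV, where its protein is now placed. Another 6 genes with such symbols, among them Uqcrc2 and Cox7c, had no probe set of their own.

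The mice were C57BL/6OlaHsd males of 8 weeks on D12450B diet, either germ-free or conventional. Each kind received long-chain β2→1-fructan, short-chain β2→1-fructan or water by gavage, 10 mg of fructan per day for 5 days, with 4 mice and 4 arrays in each of the 6 groups. Germ-free mice were bred in a university colony and conventional mice were bought from a supplier, so colonization and origin cannot be told apart. For germ-free mice the long-chain fructan had been irradiated, which broke down some of its longer chains, and the short-chain fructan had been filtered. RNA came from whole pieces of ileum, in which fewer cells of a type and less RNA per cell cannot be told apart.

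Complexes I and II pass electrons from NADH and succinate to ubiquinone, complex III passes them to cytochrome c, and complex IV hands them to oxygen. Complexes I, III and IV pump protons across the inner membrane of the mitochondrion, and complex V lets them flow back to make ATP. Most subunits are encoded in the nucleus, and a small number in mitochondrial DNA. The absorptive cells of the ileum are rich in mitochondria, since uptake of nutrients and bile acids draws on ion gradients that cost ATP.

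Values are on a log2 scale. Array medians lay between 4.92 and 4.98, and arrays of 1 group correlated across probe sets, which are not replicates, with r of 0.979 to 0.990. The within-group SD of the members had a median of 0.102, against 0.156 over all genes, and 6 members had a mean below 4.92, the median of all probe sets. Of 5 ileal enterocyte markers, Fabp6, Slc10a2, Slc51a and Slc51b had means of 12.55, 11.06, 10.56 and 11.51 in germ-free mice and 12.53, 10.91, 10.75 and 11.82 in conventional mice, and Fgf15, which bile acids induce, had 5.75 in germ-free and 9.31 in conventional mice.

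Many respiratory chain genes were higher in the ileum of germ-free mice, by small amounts. Averaged over the 3 treatments, 32 of 79 members were higher in germ-free than in conventional mice and 2 were lower at a Benjamini-Hochberg adjusted p under 0.05 in limma. Over all genes 18.6% were higher and 15.4% lower by that measure. Without genes of a mean below 4.92, 33 of 73 members were higher and 1 lower, against 3130 (29%) and 2441 of 10800 genes. The fold changes of the 32 higher genes lay under 1.4, and only Ndufa4 and Cox8b exceeded the 1.3-fold that the study asked for together with an unadjusted p under 0.01, a threshold passed by 8.2% of all genes. The median difference of the 79 members was 0.09, against 0.03 over all genes, and 60 of the 79 differences were above 0, or 75.9% against 58.1% of all genes. With cyclic loess in addition to the authors' normalization the median was 0.0468, against 0.011 over all genes, and 50 of the 79 differences were above 0. The split of the members was then 25 higher and 5 lower, so that the higher share of these calls was 83.3% in place of 94.1%. Of all 18820 genes, 3106 (16.5%) were higher and 3243 lower with cyclic loess.

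**Figure D1:**
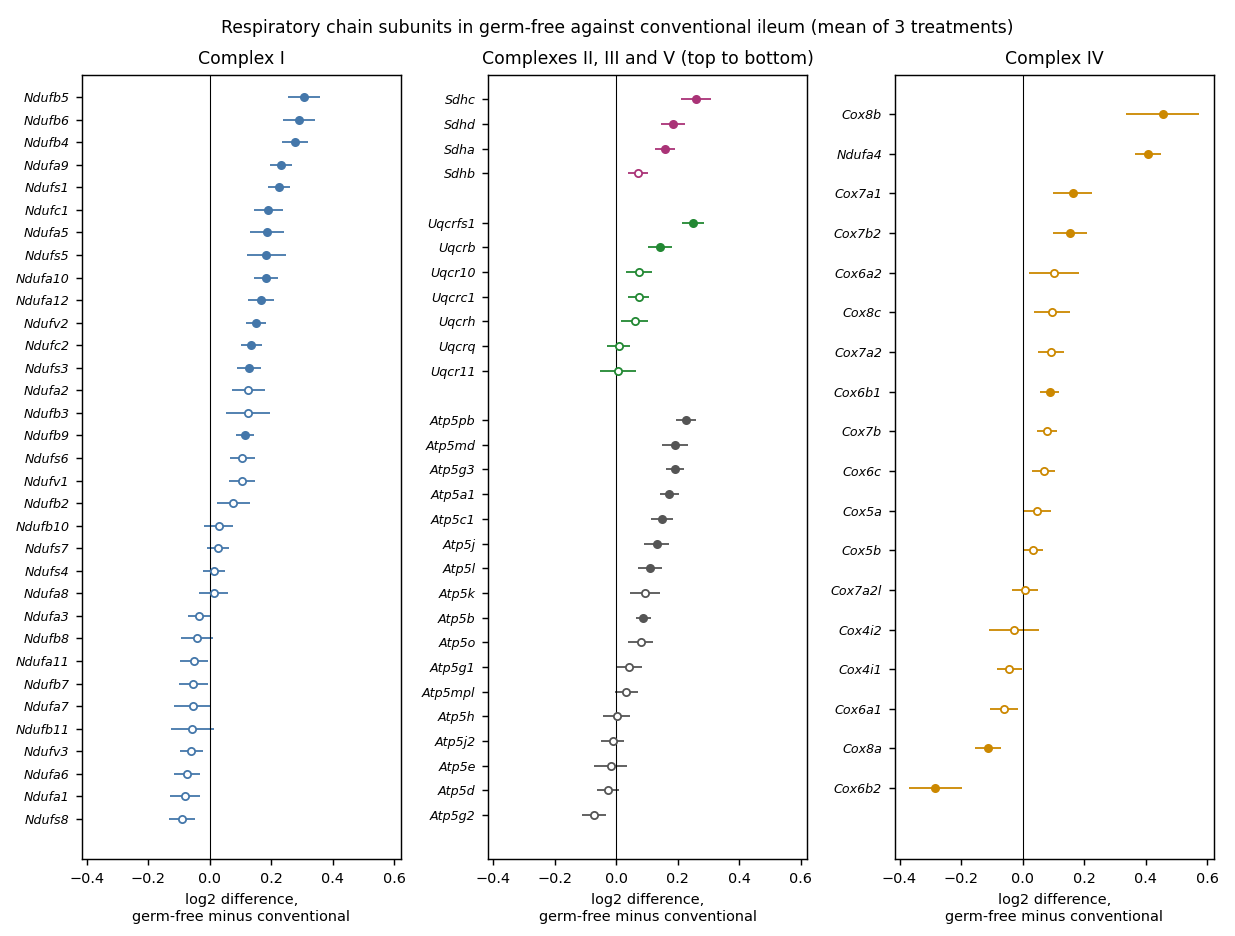
Log2 difference of each subunit gene, germ-free minus conventional mice averaged over 3 treatments (x axis), by complex, with bars of 1 standard error. Filled points passed an adjusted p under 0.05: 14 of 33 in complex I, 3 of 4 in complex II, 2 of 7 in complex III, 8 of 17 in complex V (all higher), and 5 higher and 2 lower of 18 in complex IV.

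The clearest single difference was that of Ndufa4 (probe set 10543134), a small subunit first assigned to complex I and now to cytochrome c oxidase. Its log2 expression was 10.09, 10.09, 10.33 and 10.39 in germ-free mice on long-chain fructan, 10.35, 10.43, 10.53 and 10.39 on short-chain fructan, and 10.20, 10.45, 10.41 and 10.47 on water. In conventional mice it was 10.03, 9.78, 10.12 and 9.94 on long-chain fructan, 9.89, 10.00, 9.87 and 9.90 on short-chain fructan, and 9.98, 9.93, 9.90 and 9.90 on water. The 2 kinds of mice overlapped only under long-chain fructan, where 1 conventional mouse stood above 2 germ-free mice. The mean difference was 0.41 (SE 0.043, 1.33-fold, limma adjusted p = 2.35e-08, n = 12 and 12). With cyclic loess it was 0.36 (limma adjusted p = 5.85e-08), short of 1.3-fold.

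In complex III, Uqcrfs1 encodes the Rieske iron-sulfur protein, which takes electrons from ubiquinol. It ranged from 8.73 to 8.95 with a median of 8.79 in the 12 germ-free mice, and from 8.39 to 8.72 with a median of 8.54 in the 12 conventional mice. No conventional mouse reached the lowest germ-free mouse, a pattern that 1.31% of all genes had. The difference was 0.25 (SE 0.035, limma adjusted p = 2.85e-06). Uqcrb, another subunit of complex III, was higher by 0.14 (SE 0.040, limma adjusted p = 0.00635). The core protein gene Uqcrc1 differed by 0.07 (adjusted p = 0.112), and Uqcrh, Uqcrq, Uqcr10 and Uqcr11 by 0.01 to 0.07 without passing.

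In complex V, Atp5pb, which encodes subunit b of the stalk that holds the enzyme's head in place, was the other gene with complete separation of the 2 kinds of mice. Its values were 10.22, 10.10, 10.13 and 10.08 in germ-free mice on long-chain fructan, 10.14, 10.22, 10.16 and 10.13 on short-chain fructan, and 10.10, 10.22, 10.18 and 10.28 on water. They were 10.02, 9.78, 10.05 and 10.05 in conventional mice on long-chain fructan, 9.90, 9.92, 9.96 and 9.95 on short-chain fructan, and 9.91, 9.92, 9.85 and 9.93 on water. The difference was 0.23 (SE 0.032, limma adjusted p = 3.32e-06), and a further probe set of the gene gave 0.22 (SE 0.028).

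Atp5g3, 1 of 3 genes for the c subunit of the rotating proton ring, lay between 10.18 and 10.40 in germ-free mice (median 10.27) and between 9.99 and 10.19 in conventional mice (median 10.07). It differed by 0.19 (SE 0.029, limma adjusted p = 6.83e-06). The other ring genes did not pass, with 0.04 for Atp5g1 (SE 0.042) and -0.07 for Atp5g2 (SE 0.039). In the catalytic head, the genes of subunits α (Atp5a1, 0.17), β (Atp5b, 0.09) and γ (Atp5c1, 0.15) were higher in germ-free mice, with limma adjusted p of 5.33e-05, 0.00686 and 0.00131. Those of subunits δ (Atp5d, -0.03) and ε (Atp5e, -0.02) did not pass. Atp5md, a small membrane subunit, was higher by 0.19 (SE 0.043), as were the stalk gene Atp5j by 0.13 and the membrane gene Atp5l by 0.11. Further probe sets of Atp5l gave 0.09 to 0.11, and only the set at 0.11 passed in a limma fit over all probe sets.

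Complex II has no subunit from mitochondrial DNA and also works in the citric acid cycle, and 3 of its 4 genes were higher in germ-free mice. Sdhc, a membrane anchor, ranged from 9.44 to 9.93 in germ-free mice (median 9.69) and from 9.24 to 9.62 in conventional mice (median 9.46), a difference of 0.26 (SE 0.048, limma adjusted p = 1.08e-04). Sdhd, the other anchor, differed by 0.18 (SE 0.039, limma adjusted p = 4.54e-04), and the flavoprotein gene Sdha by 0.16 (SE 0.033, limma adjusted p = 3.76e-04). The iron-sulfur gene Sdhb differed by 0.07 (SE 0.032, limma adjusted p = 0.0888). All 4 genes overlapped between the 2 kinds of mice.

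Of the 33 complex I genes 14 were higher and none was lower, whereas with cyclic loess Ndufs3 and Ndufs5 no longer passed and Ndufa6 (-0.12) and Ndufs8 (-0.13) passed as lower. Accessory subunits of the membrane arm had the largest differences, with Ndufb5 higher by 0.31 (SE 0.053), Ndufb6 by 0.29 (SE 0.051) and Ndufb4 by 0.28 (SE 0.042), and limma adjusted p of 4.66e-05, 5.71e-05 and 8.84e-06. Ndufb5 ranged from 7.59 to 7.99 in germ-free mice (median 7.80) and from 7.23 to 7.77 in conventional mice (median 7.52). Ndufb4 ranged from 8.89 to 9.29 in germ-free mice (median 9.16) and from 8.64 to 8.98 in conventional mice (median 8.87), and a further probe set gave 0.28 (SE 0.046). Both genes overlapped between the 2 kinds of mice.

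Among the subunits of complex I that carry iron-sulfur clusters or flavin, Ndufs1 was higher by 0.22 (SE 0.036, limma adjusted p = 1.57e-05), Ndufv2 by 0.15 (SE 0.033) and Ndufs8 differed by -0.09 (SE 0.043, limma adjusted p = 0.110). Ndufv1 differed by 0.11 (adjusted p = 0.0631) and Ndufs7 by 0.03. Ndufs3, which helps to form the ubiquinone-reducing arm, was higher by 0.13. Ndufa9, an accessory subunit at the joint of the 2 arms, lay between 8.67 and 8.86 in germ-free mice (median 8.76) and between 8.41 and 8.72 in conventional mice (median 8.51), a difference of 0.23 (SE 0.035, limma adjusted p = 9.38e-06). Ndufa10, Ndufa12, Ndufa5, Ndufb9, Ndufc1, Ndufc2 and Ndufs5 were higher by 0.11 to 0.19. A further probe set of Ndufc1 gave 0.06 (SE 0.044) and did not pass. The other 19 genes of the complex did not pass, and 10 of them were below 0.

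**Figure D2:**
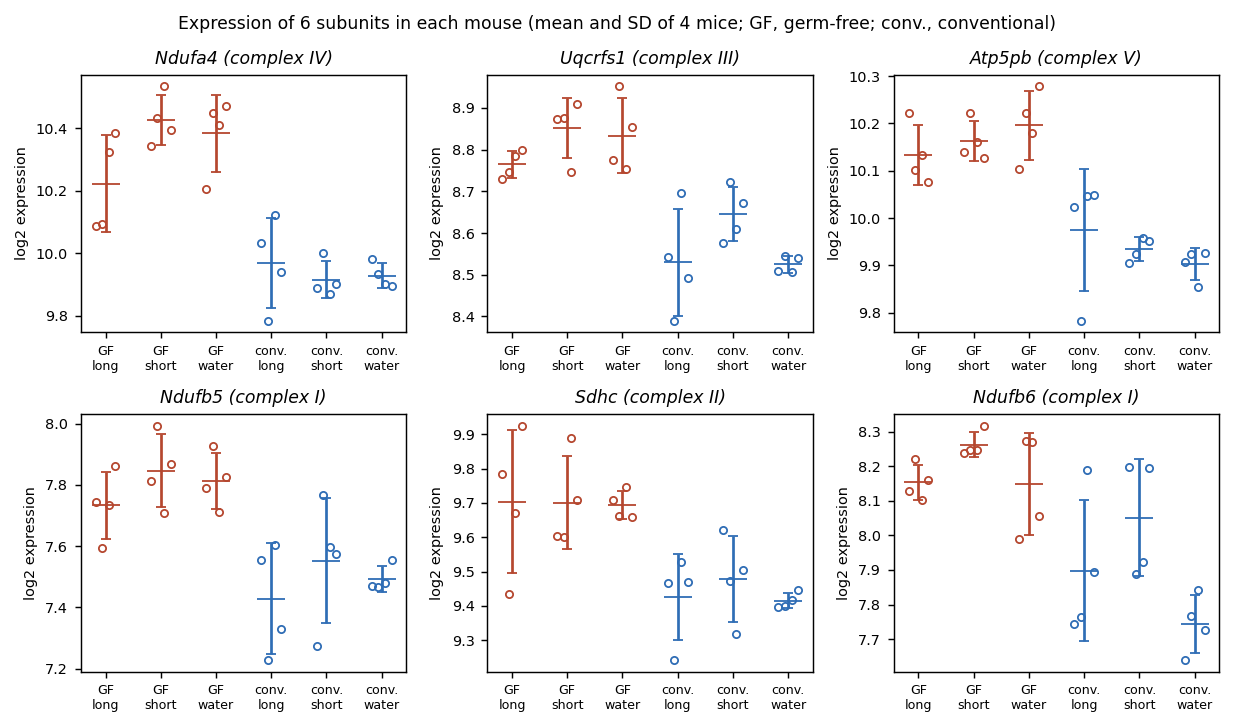
Log2 expression of 6 subunit genes in each mouse (points; y axis) by group, with the mean and SD of 4 mice. Uqcrfs1 and Atp5pb in all 12 germ-free mice lie above all 12 conventional mice, while Ndufa4, Ndufb5, Sdhc and Ndufb6 overlap.

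Complex IV, cytochrome c oxidase, held passing genes of both directions. Besides Ndufa4, Cox8b was higher in germ-free mice by 0.46 (SE 0.119, 1.37-fold, limma adjusted p = 0.00374). Cox8b is the form of subunit VIII of muscle and brown fat, and its values were low: 3.56 to 4.90 in germ-free mice (median 4.40) and 3.56 to 4.51 in conventional mice (median 3.83), with overlap and under the median of the arrays in every mouse. Cox8a, the form of most tissues, was lower by 0.11 (SE 0.042, limma adjusted p = 0.0373). The testis form Cox6b2 was also lower in germ-free mice, with 4.34 to 5.14 (median 4.69) against 4.82 to 5.37 in conventional mice (median 4.94), a difference of -0.28 (SE 0.085, limma adjusted p = 0.0104). The mean of Cox6b2 over 24 mice, 4.83, also lay below 4.92, the median of all probe sets. The counterpart of Cox6b2 in most tissues, Cox6b1, was higher by 0.09 (SE 0.031, limma adjusted p = 0.0278).

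For the remaining isoforms of complex IV, the muscle form Cox7a1 was higher by 0.16 (SE 0.062, limma adjusted p = 0.0438) and the general form Cox7a2 differed by 0.09 (adjusted p = 0.0888). Cox7a2l, a factor that joins complexes into supercomplexes, differed by 0.01 (SE 0.041). The testis form Cox7b2 was higher by 0.15 (SE 0.055) at a mean of 2.15 in germ-free and 2.00 in conventional mice, and Cox7b differed by 0.08 (adjusted p = 0.0655), with 0.17 (SE 0.034) in a further probe set. Neither Cox4i1 (-0.04) nor the lung form Cox4i2 (-0.03) passed, nor did Cox6a1 (-0.06), Cox6a2 (0.10) or Cox8c (0.10). The calls of Cox7a1 and Cox8a each ended when any of 16 and 13 single mice was left out.

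The mean of the 79 members, each centred on its mean over 24 mice, was -0.03 to 0.10 in germ-free mice and -0.09 to 0.03 in conventional mice. Per mouse, 34 to 65 members were above their own mean in germ-free mice and 15 to 53 in conventional mice, or 43.0 to 82.3% and 19.0 to 67.1%. Over all genes these shares were 43.8 to 55.4% and 40.7 to 53.8%. On long-chain fructan the 2 kinds of mice did not overlap, with 39 to 64 members in germ-free and 15 to 35 in conventional mice, and neither did they on water, with 50 to 59 in germ-free and 20 to 37 in conventional mice. On short-chain fructan they did, with 34 to 65 in germ-free and 27 to 53 in conventional mice.

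**Figure D3:**
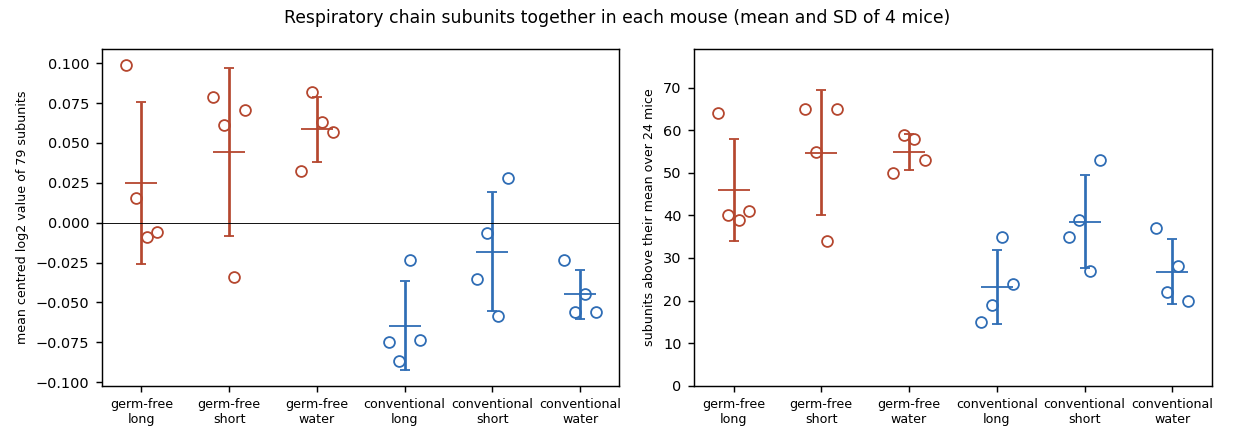
Mean centred log2 value of the 79 subunits (y axis, left panel) and number of subunits above their own mean over 24 mice (y axis, right panel) in each mouse (points), by group (x axis), with the mean and SD of 4 mice. Germ-free mice lie above conventional mice on long-chain fructan and on water in both panels, and overlap with them on short-chain fructan.

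The sequences just before the start sites are shown because many members moved the same way. RefSeq promoters of GRCm38.p6 matched 66 of the 79 members, and the stretch from 250 bases before to 50 bases after the start was searched on both strands for the NRF-1 motif, GABP (CCGGAAG), YY1 (AAGATGGC) and estrogen-related receptor (TCAAGGTCA) letters. These factors are known for their sites before genes of the respiratory chain. An NRF-1 match stood at 25.8% of the members, against 5.19% of all 27025 genes with such a stretch and 7.95% of those on the array. For GABP the shares were 25.8%, 9.93% and 13.7%, and for YY1 15.2%, 3.19% and 3.82%. NRF-1 matched at 25.9% of the 27 members that were higher in germ-free mice and 25.6% of the 39 others, with the same shares for GABP, and YY1 at 14.8% and 15.4%. Estrogen-related receptor letters were found at 2 members, Atp5g3 and Sdhd, both higher in germ-free mice, or 3.03% of members against 0.466% of all genes and 0.339% of those on the array. Sp1 letters (GGGCGG) were found at 40.9% of members, 38.2% of all genes and 53.4% of those on the array, and at 48.1% of the higher members and 35.9% of the others. For 4 members that were higher in germ-free mice the 250 bases before the start are printed 5′ to 3′ on the minus strand. Matches of NRF-1, GABP and estrogen-related receptor are in capitals, and none of them overlap. YY1 and Sp1 letters are not marked. Sdha (chr13:74350241-74350490) and Ndufb4 (chr16:37654369-37654618) each hold 3 NRF-1 matches, Sdhd (chr9:50603850-50604099) holds 1 of NRF-1 and 1 of GABP, and Atp5g3 (chr2:73911327-73911576) holds 1 of estrogen-related receptor. The estrogen-related receptor match of Sdhd and the NRF-1 match of Atp5g3 do not lie wholly within the printed bases. A match is a run of letters and not a site shown to be bound.
Sdha: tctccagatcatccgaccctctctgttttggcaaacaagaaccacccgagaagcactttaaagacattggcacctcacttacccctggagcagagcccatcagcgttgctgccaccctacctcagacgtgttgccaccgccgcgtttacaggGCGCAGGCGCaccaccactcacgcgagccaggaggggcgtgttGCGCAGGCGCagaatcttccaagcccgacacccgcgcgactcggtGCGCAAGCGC
Ndufb4: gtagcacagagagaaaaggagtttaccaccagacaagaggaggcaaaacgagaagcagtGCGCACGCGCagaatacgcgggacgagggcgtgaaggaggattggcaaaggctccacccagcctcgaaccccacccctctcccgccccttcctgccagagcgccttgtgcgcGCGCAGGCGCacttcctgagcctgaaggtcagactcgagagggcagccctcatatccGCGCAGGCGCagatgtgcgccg
Sdhd: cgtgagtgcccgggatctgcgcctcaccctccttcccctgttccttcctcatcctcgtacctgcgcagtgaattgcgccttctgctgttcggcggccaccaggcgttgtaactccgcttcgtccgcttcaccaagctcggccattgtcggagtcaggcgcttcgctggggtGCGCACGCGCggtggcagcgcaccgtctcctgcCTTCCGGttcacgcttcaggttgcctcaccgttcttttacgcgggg
Atp5g3: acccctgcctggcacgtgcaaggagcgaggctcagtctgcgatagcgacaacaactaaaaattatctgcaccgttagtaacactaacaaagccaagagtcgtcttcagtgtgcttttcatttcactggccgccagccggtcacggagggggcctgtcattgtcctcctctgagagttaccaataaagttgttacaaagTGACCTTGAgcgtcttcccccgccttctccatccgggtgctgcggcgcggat
The match nearest to a start began 10 bases before it in Sdha and 22 bases before it in Ndufb4.

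The comparison was also made within each treatment, on separate mice. On long-chain fructan, 12 members were higher in germ-free than in conventional mice and none was lower (limma adjusted p under 0.05; 7.27% and 8.58% of all genes). That number passing was 3 without conventional mouse 2, 2 when only the arrays compared were fitted and 6 with array weights. On short-chain fructan 10 were higher and 1 was lower (8.84% and 6.21% of all genes), and on water 17 were higher and none was lower (5.6% and 7.93% of all genes). The median differences were 0.07, 0.06 and 0.09, against 0.03, 0.03 and 0.01 over all genes. In the 3 treatments 48 of 79 members were above 0 each time, or 60.8% against 33.2% of all genes, and 8 were below 0 each time (10.1% against 23.7%).

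In all 3 treatments 5 members passed, or 6.33% against 2.83% of all genes: Ndufa4, Uqcrfs1, Ndufb4, Ndufb5 and Ndufa9. Uqcrfs1 differed by 0.23 on long-chain fructan, 0.21 on short-chain fructan and 0.31 on water, with complete separation each time. Ndufb5 differed by 0.30, 0.29 and 0.32, and Ndufa9 by 0.20, 0.23 and 0.26, in the same order. Ndufa4 differed by 0.25 on long-chain fructan, 0.51 on short-chain fructan and 0.46 on water. The interaction for Ndufa4 with long-chain fructan was -0.20 (SE 0.105, limma adjusted p = 1.00), so that the smaller difference on long-chain fructan was not shown to differ from that on water. On water, 23 members had every germ-free mouse above every conventional mouse and 1 had the reverse, where 8.48% and 9.37% of all genes did. On long-chain fructan these counts were 11 and 1 (7.01% and 8.88% of all genes), and on short-chain fructan 14 and 2 (12% and 7.86%). By the study's threshold no member was called on long-chain fructan, Ndufa4 on short-chain fructan, and Ndufa4 and Ndufb6 on water, where 9.69%, 8.76% and 8.74% of all genes were called.

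Beyond the members, other mitochondrial genes were higher in germ-free mice too. At an adjusted p under 0.05, used for all gene and marker lists below, 18.6% of all genes were higher and 15.4% lower. Of 15 genes of the citric acid cycle and pyruvate dehydrogenase, which feed the chain with NADH and succinate, 11 were higher and 1 was lower (median 0.24). Pdhb, a subunit of pyruvate dehydrogenase, was higher by 0.45 (SE 0.061) and Fh1, fumarase, by 0.28 (SE 0.035), with limma adjusted p of 1.40e-06 and 3.95e-07. Idh2, a mitochondrial isocitrate dehydrogenase, was lower by 0.11 (log2 difference -0.11, limma adjusted p = 0.0401). Mitochondrial ribosomal proteins, which make the subunits encoded in mitochondrial DNA, were higher for 41 of 74 genes and lower for none (median 0.15), with the smallest p for Mrpl18 (0.30, SE 0.040). Cytosolic ribosomal proteins were higher for 10 and lower for 8 of 68 genes (median 0.00).

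Assembly factors help to build the complexes and are not part of them. For complex IV 13 of 19 were higher and none was lower (median 0.17), with Sco1, a copper chaperone, higher by 0.42 (SE 0.043, limma adjusted p = 1.81e-08), Coa5 by 0.40 (SE 0.043) and Lrpprc, which stabilizes mitochondrial messenger RNA, by 0.32 (SE 0.044). For complex I 7 of 14 were higher (median 0.12), with Ndufaf4 higher by 0.47 (SE 0.077). For complex V Tmem70 (0.33) and Atpaf2 (0.15) of 3 were higher, and for complex III Uqcc1 (0.19) and Bcs1l (0.15) of 6. For complex II Sdhaf2 was higher (0.11) and Sdhaf1 was lower (-0.20).

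Of 16 regulators of mitochondrial biogenesis 6 were higher and 1 was lower in germ-free mice. The lower one was Ppargc1a, a coactivator known to raise the expression of respiratory chain genes. It ranged from 7.90 to 8.61 in germ-free mice and from 8.21 to 9.07 in conventional mice, a difference of -0.61 (SE 0.086, limma adjusted p = 2.86e-06). Tfb2m (0.28) and Tfam (0.20), which act in transcription of mitochondrial DNA, were higher, as were Yy1 (0.16) and Gabpa (0.15). Nrf1 (-0.08) and Esrra (-0.04), the genes of 2 further factors searched for above, did not pass. Of genes of the chain outside the symbol rule, Ndufab1 was higher by 0.14 (SE 0.037), and Cyc1 (0.08) and Cycs (-0.02) did not pass.

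**Figure D4:**
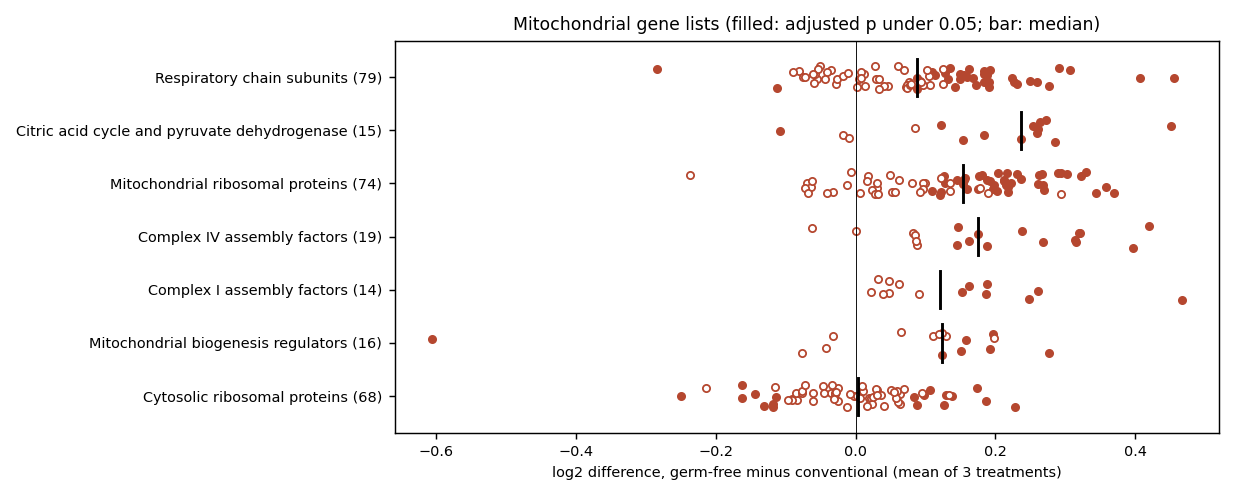
Log2 difference of each gene, germ-free minus conventional mice averaged over 3 treatments (x axis), for the 79 subunits and 6 further gene lists (rows; number of genes in brackets). Filled points passed an adjusted p under 0.05 and bars are medians, which lie at 0.24 for the citric acid cycle and at 0.00 for cytosolic ribosomal proteins.

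The make-up of the tissue differed between the 2 kinds of mice, and its part in these results was not tested. Adipocyte markers were higher in germ-free mice for 6 of 6 genes (median 1.57), with a mean centred level of -0.43 to 1.52 in germ-free and -1.37 to 0.0070 in conventional mice. Of 5 brown adipocyte markers 3 were higher, with levels of -0.20 to 0.47 in germ-free and -0.29 to -0.07 in conventional mice, while Ucp1, which defines the cell type, had a mean of 3.07 in germ-free and 3.08 in conventional mice, below the median of the arrays. Smooth muscle markers were lower in germ-free mice for 10 of 10 genes (median -0.43), with levels of -0.84 to 0.02 in germ-free and 0.09 to 0.37 in conventional mice. T cell markers were lower for 7 of 8 genes (median -1.97; -1.01 to -0.31 in germ-free and 0.48 to 1.15 in conventional mice). Enterocyte markers were higher for 5 and lower for 1 of 12 genes (median 0.07; -0.27 to 0.68 in germ-free and -0.30 to -0.05 in conventional mice), among them Sis, sucrase-isomaltase, by 0.35 (SE 0.037). Ileal enterocyte markers were higher for 1 and lower for 3 of 5 genes (median -0.19; -0.90 to 0.30 in germ-free and 0.03 to 0.54 in conventional mice), and erythrocyte markers were higher for 2 of 2 genes (median 0.68). Of 9 striated muscle markers 2 were lower and none was higher. Also lower were 5 of 6 plasma cell, 6 of 6 Paneth cell and 5 of 7 enteric neuron and glia markers, with none higher, and of 9 crypt markers 4 were higher and 2 lower.

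The fructans changed none of the 79 members by the study's threshold in any comparison with water, in either kind of mouse. By that threshold 161 genes (0.855%) were called for long-chain and 109 (0.579%) for short-chain fructan in germ-free mice, and 59 (0.313%) and 77 (0.409%) in conventional mice. No gene of the array reached a limma adjusted p under 0.05 in these comparisons. In germ-free mice, 6 members had an unadjusted p under 0.05 for long-chain fructan, all lower than on water (by that measure 4.95% of all genes were lower and 3.78% higher), and 1 for short-chain fructan, also lower (1.94% lower and 3.77% higher). In conventional mice there were 2 for long-chain fructan, both lower (3.74%), and 3 for short-chain fructan, 2 higher (1.6%) and 1 lower (3.61%). The groups did not overlap for 1 member in germ-free mice on long-chain fructan, lower than on water (1.76% of all genes lower and 1.51% higher). On short-chain fructan there were 2, 1 higher and 1 lower (1.74% and 1.29% of all genes). In conventional mice there were 3 on long-chain fructan, all lower (2.95% of all genes lower and 1.26% higher). On short-chain fructan there were 5, 4 higher and 1 lower (1.37% and 2.72% of all genes). The 2 comparisons of each kind of mouse share their water mice.

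**Figure D5:**
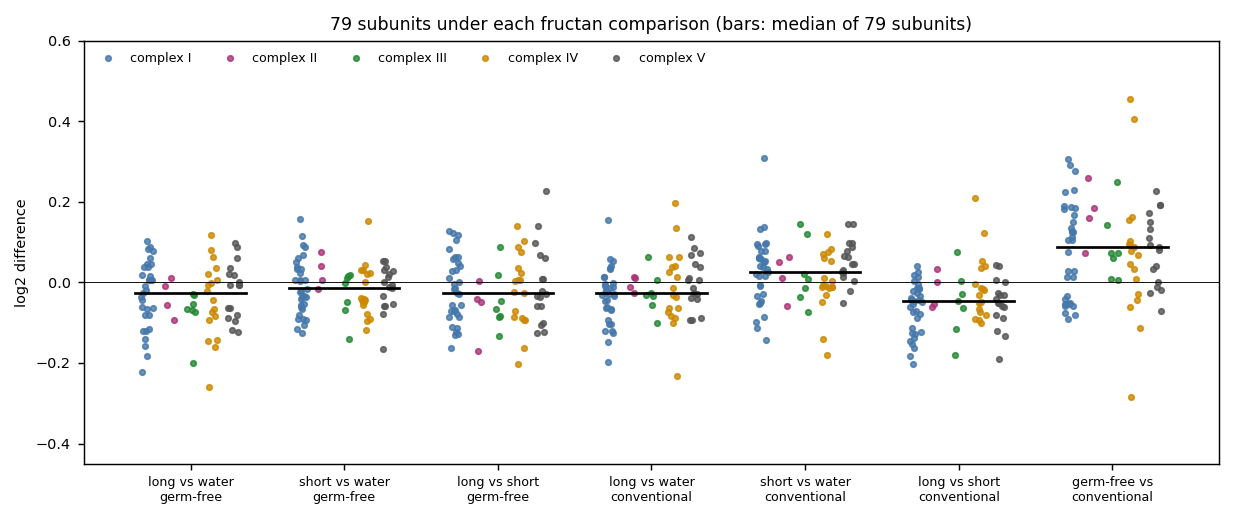
Log2 difference of the 79 subunits (points, coloured by complex; y axis) in 6 fructan comparisons and, on the right, between germ-free and conventional mice, with the median as a bar. The 6 fructan medians lie between -0.05 and 0.03, and that of germ-free against conventional mice at 0.09.

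The largest of these differences was that of Ndufb6 in conventional mice. It was 8.20, 7.89, 7.92 and 8.19 on short-chain fructan and 7.64, 7.77, 7.84 and 7.73 on water, so that the groups did not overlap (1.37% of all genes had every short-chain mouse above every water mouse). The difference was 0.31 (SE 0.089, 95% interval 0.13 to 0.49, unadjusted p = 0.00174, limma adjusted p = 0.843). On long-chain fructan the values were 7.75, 7.76, 8.19 and 7.90, a difference of 0.15 from water (SE 0.089). Cox6b1 was 10.36, 10.50, 10.31 and 10.46 on short-chain fructan and 10.53, 10.53, 10.53 and 10.61 on water, without overlap (2.72% of all genes had this), a difference of -0.14 (SE 0.053, limma adjusted p = 0.910). Cox7a1 was 7.94, 8.12, 8.08 and 8.23 on long-chain fructan and 8.48, 8.25, 8.29 and 8.27 on water, without overlap (2.95% of all genes), a difference of -0.23 (SE 0.108, limma adjusted p = 0.871).

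In germ-free mice, Cox7a1 was 8.40, 8.21, 7.99 and 8.23 on long-chain fructan and 8.59, 8.33, 8.34 and 8.61 on water, with overlap, a difference of -0.26 (SE 0.108, limma adjusted p = 0.471). Uqcr10, a small subunit of complex III, differed by -0.20 (SE 0.073, limma adjusted p = 0.413), Ndufa1 of complex I by -0.22 (SE 0.084) and Ndufs1 by -0.16 (SE 0.062). Ndufs1 was 8.63, 8.54, 8.58 and 8.56 on long-chain fructan and 8.70, 8.75, 8.76 and 8.73 on water, without overlap (1.76% of all genes). No member had every long-chain mouse above every water mouse (1.51% of all genes). Ndufc2 was 8.80, 8.78, 8.83 and 8.84 on short-chain fructan and 8.91, 8.87, 8.95 and 9.03 on water, also without overlap (1.29% of all genes), a difference of -0.13 (SE 0.060, limma adjusted p = 0.864). In the other direction Atp5b was 11.88, 11.89, 11.87 and 11.85 on short-chain fructan and 11.78, 11.82, 11.84 and 11.83 on water, without overlap (1.74% of all genes), a difference of 0.05 (SE 0.043, limma adjusted p = 0.953). In complex II, Sdha differed from water by -0.09 on long-chain and by 0.08 on short-chain fructan (SE 0.057 each).

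The 2 fructans, which differ in the length of the chain and were given at 1 dose, were also compared directly, in 1 pair for each kind of mouse. No member passed the study's threshold (1.41% of all genes did in germ-free mice and 0.213% in conventional mice) and no gene had a limma adjusted p under 0.05. At an unadjusted p under 0.05, 2 members were higher and 3 lower on long-chain fructan in germ-free mice (5.06% and 7.65% of all genes), and none higher and 5 lower in conventional mice (1.9% and 1.74%). The groups did not overlap for 4 members in germ-free and 3 in conventional mice, all lower on long-chain fructan. Of all genes 3.27% were lower and 2.16% higher without overlap in germ-free mice, and 1.09% and 1.31% in conventional mice. In germ-free mice, Sdha was 10.39, 10.26, 10.39 and 10.37 on long-chain fructan and 10.47, 10.53, 10.57 and 10.51 on short-chain fructan, without overlap (3.27% of all genes), a difference of -0.17 (SE 0.057, 95% interval -0.29 to -0.05, limma adjusted p = 0.254). Ndufa4 differed by -0.20 (95% interval -0.36 to -0.05) and Atp5k, a small subunit of complex V, by 0.23 (SE 0.085, limma adjusted p = 0.291).

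In conventional mice Atp5k was 7.06, 7.06, 6.98 and 7.12 on long-chain fructan and 7.38, 7.16, 7.22 and 7.21 on short-chain fructan, a difference of -0.19 (SE 0.085). Ndufs8 was 9.07, 9.24, 9.24 and 9.32 on long-chain fructan and 9.41, 9.38, 9.34 and 9.46 on short-chain fructan, a difference of -0.18 (SE 0.074, limma adjusted p = 1.00). Neither gene overlapped between these groups, a pattern of 1.09% of all genes in this direction. The exact permutation p of such a gene was 0.0286 (two-sided), the smallest that 4 against 4 mice can give. The 95% intervals of all members reached from -0.39 to 0.46 in germ-free and from -0.41 to 0.64 in conventional mice, with a median half-width of 0.149, and these intervals bound the differences that 4 mice a group leave possible.

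The response to a fructan was not shown to differ between germ-free and conventional mice for any member. In the interaction no member passed the study's threshold for long-chain (0.531% of all genes) or short-chain fructan (0.707%), and no gene passed in limma at an adjusted p under 0.05. At an unadjusted p under 0.05 there were 0 members for long-chain and 3 for short-chain fructan, all below 0 (1.74% of all genes): Ndufc2 (-0.20), Atp5k (-0.26) and Uqcr10 (-0.21).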

How the data were processed

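Per-mouse log2 expression values were used as deposited. The authors made them from Affymetrix Mouse Gene 1.1 ST arrays with RMA, in which background is removed, all arrays are given 1 distribution and the probes of each set are combined. A shift of all genes together would be hidden by this. The methods name a remapped annotation, whereas the deposited rows carry the maker's probe set numbers, joined here to symbols by the platform table. Of 35556 probe sets 21218 had 1 symbol, 1881 several and 12457 none; the probe set with the highest mean was kept for 1386 genes with several. Of 22 members with several probe sets, 21 had 1 sign in all of them. No array was left out.

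The model, made in limma 3.58.1 under R 4.3.3, had 6 group means over 24 arrays and eBayes with trend; p-values were adjusted over 18820 genes (Benjamini-Hochberg). The study's threshold is an unadjusted p under 0.01 with a fold change over 1.3. The mean difference over 3 treatments averages 3 contrasts on separate mice. No counts exist, and the number of arrays limits the precision. The labels number the mice within each group, and whether they shared cages was not given in the sources used here. The fit was tested on simulated data. Members, lists and tests were chosen with earlier results of these data known. Named are up to 6 passing members of each complex with the smallest p, the members with the smallest p in each fructan comparison, complex II, isoform sets and up to 4 genes of a list; the genes given per mouse come from those with the smallest p. Other settings tried were eBayes without trend, the study's own moderated statistic, cyclic loess, array weights, dim genes left out, probe sets averaged, the arrays of the compared groups alone, tissue-restricted isoforms left out, the replicate number as a block, and each mouse left out in turn.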

Additional observations from a re-analysis of the deposited data

Results flagged for a closer look

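In 108 groups of 4 mice, from 12 genes and 6 means over the members, 11 held 1 mouse far from the other 3, where chance gives about 5.4 (about 1 in 20). In germ-free mice on long-chain fructan, Sdha was 10.26 in mouse 2 (others 10.37 to 10.39), and the complex I mean 0.11 in mouse 1 (others -0.0024 to 0.0059). On short-chain fructan, Ndufb6 was 8.32 in germ-free mouse 4 (others 8.24 to 8.25), and in germ-free mouse 3 the mean of all members was -0.034 (others 0.06 to 0.08) and that of complex I -0.0325 (others 0.06 to 0.08). On water, the complex III mean was 0.16 in germ-free mouse 2 (others 0.05). In conventional mice, Atp5pb was 9.78 in mouse 2 on long-chain fructan (others 10.02 to 10.05), and the complex II mean -0.20 in mouse 3 on short-chain fructan (others -0.03 to -0.02). On water, conventional mouse 4 was apart for Ndufa9 at 8.53 (others 8.47), Ndufb5 at 7.56 (others 7.47 to 7.48) and Sdha at 10.24 (others 10.28).

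Outside the members, 4 of 9 probe sets that list a nuclear subunit gene with another gene were higher in germ-free mice, in a limma fit over all probe sets. Of the 18820 genes in the main fit 18.6% were higher, and the share over all probe sets was not counted. The 3 sets shared by Cox7c and Gm10012 differed by 0.113, 0.119 and 0.120 (adjusted p = 0.0173, 0.00425 and 0.0134), and 1 set shared by Uqcrc2 and Pdzd9 by 0.164 (adjusted p = 1.64e-04). A further set of Uqcrc2 and Pdzd9 differed by 0.11 (adjusted p = 0.217), those of Ndufa13 and Tssk6 by -0.02 and -0.03, that of Ndufs5 and Ndufs5-ps by 0.02 and that of Ndufa8 and Morn5 by 0.03, none of which passed. Which gene of each pair was read cannot be told apart.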

How the results depend on the processing

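Over 3 treatments, 34 members passed, and without any 1 mouse 30 to 36. Of the 32 higher members 25 passed in every other fit that held them, and 24 of these also without any 1 mouse. Cox8b and Cox7b2 are among the 25 and were not part of the fit without dim genes. Cyclic loess gave 1 member past the study's threshold in place of 2 (Ndufa4, at 0.36, was lost), a median of 0.0468 in place of 0.0879 and no pass for Atp5b, Atp5j, Atp5l, Cox6b1, Cox7a1, Ndufs3 and Ndufs5, while Atp5g2, Ndufa6 and Ndufs8 became lower. Leaving out dim genes or tissue-restricted isoforms gave 1 in place of 2, since Cox8b dropped out. On short-chain fructan, the compared arrays alone and array weights gave 2 members past that threshold in place of 1, and array weights 17 at an adjusted p under 0.05 in place of 11. On long-chain fructan, the compared arrays alone gave 2 and array weights 6 at an adjusted p under 0.05 in place of 12, and averaged probe sets 1 past the study's threshold in place of 0. The cause was not tested for these. Without 1 mouse, the count at an adjusted p under 0.05 was 3 to 12 on long-chain fructan (3 without conventional mouse 2, 6 without germ-free mouse 4 and 7 without germ-free mouse 1), 6 to 15 on short-chain fructan (6 without germ-free mouse 2 and 7 without conventional mouse 3), and 11 to 17 on water (11 without conventional mouse 2). Counts past the study's threshold were 0 to 1, 1 to 2 and 1 to 2. The medians for long-chain fructan against water in conventional mice (-0.03 to 0.0017) and short-chain fructan against water in germ-free mice (-0.03 to 0.01) changed sign without conventional mouse 2 on long-chain fructan and germ-free mouse 3 on short-chain fructan. Single mice ended the calls of Cox7a1 (16 of 24), Cox8a (13), Atp5l (7), Cox7b2 (7), Cox6b1 (4) and Ndufs5 (2). The replicate block again gave 34 members. Among same-numbered pairs of arrays 4 of 60 correlated over 0.1, so the numbers were not shown to pair the mice. A weak correlation cannot exclude that same-numbered mice shared a cage or a day. Under cyclic loess 50 members were above 0 in place of 60, so some small differences changed sign. None of the up to 99 single-gene values followed through the other fits did. Those values were chosen for a p under 0.05, adjusted or, for the fructan comparisons, unadjusted, so a change of sign was unlikely from the start.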

Other observations

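Probe sets with the symbols of mitochondrial DNA genes, each shared with a nuclear gene symbol, did not pass between germ-free and conventional mice in a limma fit over all probe sets. Those that list COX2 with Prf1 had means of 12.46 and 12.27 in germ-free mice and 12.54 and 12.34 in conventional mice (differences -0.08 and -0.07, adjusted p = 0.109 and 0.117). Those that list ATP6 with Gm10925 differed by -0.04, -0.04 and 0.07 (adjusted p = 0.515, 0.436 and 0.589). Which gene of each pair was read cannot be told apart.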
